A study of Mus musculus with 28 samples.

Results

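Nuclei of the gut muscle wall that are not sorted as neurons were compared between the colon and the small intestine of specific pathogen-free (SPF) mice, which carry a microbiota free of listed pathogens. The comparison used 8 of the 28 libraries of the study, chosen by their labels: 4 colonic and 4 small intestinal libraries of the non-neuronal fraction. They are written C1 to C4 and S1 to S4 here, after the replicate numbers in the labels. All mice were C57BL/6, of an age the sources used here do not give, and received the adeno-associated virus AAV9-CaMKII-EGFPKASH by vein 5 weeks before the tissue was taken. The virus carries a green fluorescent protein anchored in the nuclear envelope, under the CaMKII promoter. The longitudinal muscle layer was peeled off with the myenteric plexus attached, nuclei were released and sorted, and the non-fluorescent nuclei made up the fraction described. Their RNA was amplified and sequenced as nuclear RNA. The study set this fraction beside fluorescent, neuronal nuclei, and SPF beside germ-free (GF) mice, which have no microbiota; 6 GF non-neuronal libraries (3 per segment) and 8 SPF neuronal libraries (4 per segment) serve below for comparison. Sorting on a virus leaves neurons that took up no virus in the non-fluorescent gate.

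The muscle wall of the gut holds smooth muscle cells that contract, interstitial cells of Cajal that pace them, PDGFRA-positive cells that relay inhibitory signals, and fibroblasts, vessels, lymphatics, glia, macrophages and an outer mesothelium. The segments arise from different lengths of the embryonic gut tube, and their mesenchyme keeps a Hox code, in which the genes of the high-numbered paralogue groups mark the hindgut. Lymphatic vessels of the muscle layers drain fluid and cells, and their endothelium is defined by the regulator Prox1, the growth factor receptor Flt4 and the chemokine Ccl21a.

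The 8 libraries held 2562144 to 4618379 counts. Of the table's 51912 genes, 18267 passed a filter on low counts and were tested with edgeR's quasi-likelihood test. At a Benjamini-Hochberg adjusted p below 0.05, 199 genes were called (1.09%). Of these, 102 were higher in the colon (0.558% of genes tested) and 97 lower (0.531%). Levels are in CPM, counts scaled to the library total, whereas log2 fold changes come from the fit, which also scales libraries by TMM. The mean log2 TMM factor was 0.42 higher in the colon, so a fitted value lies about that far below the ratio of CPM levels. The median fitted log2 fold change over all genes was 0.02, and with library totals in place of TMM it was 0.43. That scaling gave 184 genes higher and 38 lower, against 102 and 97. Over all 18267 genes tested, 2772 had an unadjusted edgeR p below 0.05. The alternative tools DESeq2 and limma-voom called 1092 and 330. The counts given for gene lists below stand beside these. Each of the 8 libraries was left out in turn. A named gene's call in this comparison, where no loss is stated below, held each time.

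Several libraries stood apart, and the values bear on what follows. The summed level of 10 general epithelial markers was 1716, 12321, 2667 and 5272 CPM in C1 to C4 and 357, 353, 441 and 766 CPM in S1 to S4. Most of it was Muc2, the mucin of goblet cells, at 11437 CPM in C2. The summed level of 12 enteric neuron markers was 1947, 1412, 910 and 908 CPM in C1 to C4 and 754, 60.8, 139 and 138 CPM in S1 to S4, so S1 stood above the other small intestinal libraries. In the sorted neuronal libraries of SPF mice the same sum was 3927 to 5655 CPM. All mitochondrially encoded genes, ribosomal and transfer RNA genes included, took 3.49% to 7.44% of colonic and 11.1% to 12.9% of small intestinal counts. The list of 13 protein-coding ones used below summed to 7484 to 12488 CPM and 19631 to 30695 CPM. Xist, the RNA that coats an inactive X chromosome, measured 10542 to 15493 CPM in C3, C4, S3 and S4 and 7.12 to 63.0 CPM in the other 4 libraries, so both segments held both kinds. With a term for that split, 198 genes were called. The part of epithelial, neuronal and mitochondrial RNA in the results was not tested.

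**Figure D1:**
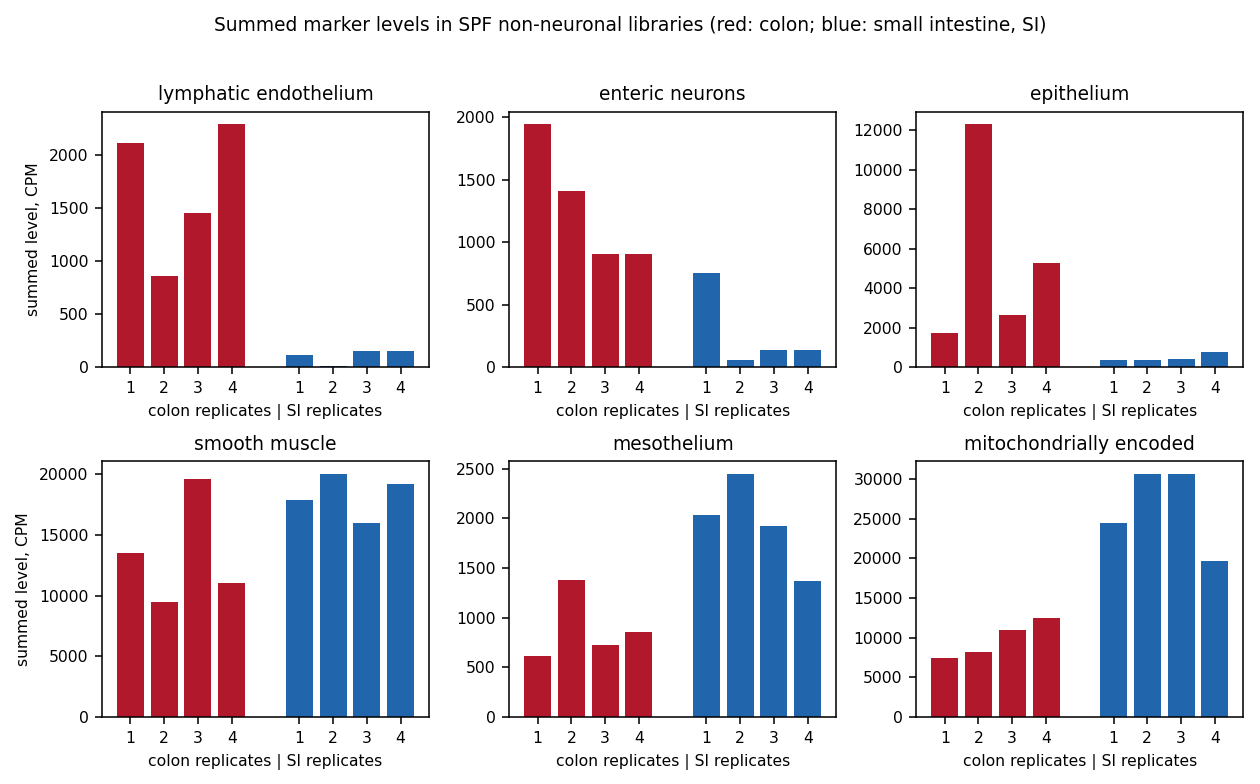
Summed level in CPM (bars) of 6 marker lists in each SPF non-neuronal library, with replicates 1 to 4 of the colon in red and of the small intestine in blue. Lymphatic, neuronal and epithelial sums were higher in each colonic library than in each small intestinal one, mitochondrially encoded genes were lower, and smooth muscle sums overlapped, from 9480 to 19596 CPM against 16019 to 20079 CPM.

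Posterior Hox genes were found in colonic nuclei and were at or near 0 in small intestinal ones. Hoxa13, which patterns the hindgut, measured 26.1, 28.4, 27.1 and 37.8 CPM in C1 to C4 and 0 in all of S1 to S4. Hoxd9 measured 39.4, 11.7, 7.05 and 8.56 CPM in C1 to C4 and 0 in S1 to S4. Hoxd11 measured 65.2, 28.8, 14.4 and 65.2 CPM in C1 to C4, and 0.647, 0, 0 and 0 CPM in S1 to S4. In none of these genes did the segments overlap, which held for 1723 of all genes tested (9.43%). Among called genes it held for 99 of 102 higher and 73 of 97 lower in the colon. It was also a condition for the genes named by size of change, here and below. C1 was the highest library for Hoxd9. Hoxa10 was less even, with 58.2, 26.4, 3.92 and 8.06 CPM in C1 to C4 and 0 in S1 to S4.

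The start regions of these 4 genes are shown because they are the Hox genes called in this comparison and come from 2 clusters, on chromosomes 6 and 2. The sequences are RefSeq promoter windows of GRCm38.p6, and for a gene with 2 starts the one farther upstream was taken. Each line gives the first 200 bases of the 250 before the start, 5′ to 3′ on the gene's strand. Capitals mark the letters TTTATG or its reverse complement CATAAA, the core that CDX factors, regulators of posterior Hox genes, bind.
Hoxa13, minus strand, chr6:52260931-52261130: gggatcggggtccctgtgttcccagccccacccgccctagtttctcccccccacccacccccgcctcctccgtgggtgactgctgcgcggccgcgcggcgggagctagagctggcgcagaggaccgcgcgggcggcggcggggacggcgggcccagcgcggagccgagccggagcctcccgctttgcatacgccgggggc
Hoxa10, minus strand, chr6:52240905-52241104: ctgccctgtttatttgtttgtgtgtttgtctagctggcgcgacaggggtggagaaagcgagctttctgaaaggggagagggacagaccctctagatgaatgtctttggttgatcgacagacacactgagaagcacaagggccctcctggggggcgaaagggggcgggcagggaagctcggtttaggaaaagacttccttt
Hoxd11, plus strand, chr2:74679308-74679507: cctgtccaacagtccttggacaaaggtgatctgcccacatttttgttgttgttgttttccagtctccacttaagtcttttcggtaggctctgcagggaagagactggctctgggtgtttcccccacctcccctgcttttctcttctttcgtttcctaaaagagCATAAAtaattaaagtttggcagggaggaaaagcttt
Hoxd9, plus strand, chr2:74697513-74697712: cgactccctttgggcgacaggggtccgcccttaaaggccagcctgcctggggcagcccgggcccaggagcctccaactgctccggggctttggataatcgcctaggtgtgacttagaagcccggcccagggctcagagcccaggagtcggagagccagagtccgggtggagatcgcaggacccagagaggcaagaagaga
Searched on both strands over the whole 250 bases and all listed starts, 1 of the 4 genes, Hoxd11, held the letters. Among tested genes with a window, 908 of 11671 (7.78%) held them, as did 4 of 60 called higher and 7 of 65 called lower. A match is a description of letters, and a window without one says nothing about the factor.

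The fitted log2 fold changes were 9.60 (SE 1.98) for Hoxa13, 8.70 (SE 1.59) for Hoxd9, 7.54 (SE 1.47) for Hoxd11 and 9.24 (SE 2.18) for Hoxa10, with edgeR adjusted p of 0.0171, 0.00497, 0.00738 and 0.0380. Against the floor of 3 counts per library, Hoxa13 was at least 30.8-fold, Hoxa10 at least 24.9-fold and Hoxd9 at least 17.2-fold higher in the colon. The Hoxa13 call was lost without C4 (adjusted p = 0.0514). The Hoxa10 call was lost without each library but C3, with adjusted p up to 0.108. Of the 16 genes of paralogue groups 9 to 13, these 4 were called, 5 were tested and not called, and 7 did not pass the filter, 2 of which had no counts in the 8 libraries. All 9 tested genes had an unadjusted p below 0.05, DESeq2 called 8 and limma-voom 6. The 16 genes summed to 155 to 407 CPM in C1 to C4 and 0.278 to 4.53 CPM in S1 to S4. Tested members thus passed the filter mainly through colonic libraries, so that these counts are no separate support. By the same rule no gene was called of 10 tested in groups 1 to 4 (median log2 fold change -0.52) or of 11 tested in groups 5 to 8 (median -0.65), where 4 and 5 genes had an unadjusted p below 0.05, DESeq2 called 1 and 4, and limma-voom 0 and 2. In GF mice the same segment difference was called for Hoxd9 (124 against 0.0848 CPM) and Hoxd11 (48.1 against 0.118 CPM), with adjusted p of 0.00396 and 0.0277. Hoxa13 in GF mice stood at 5.93 CPM in the colon and 0 in the small intestine (adjusted p = 0.138).

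Lymphatic endothelial genes formed the list with the largest share of calls among the cell type lists: 6 of 10 were higher in the colon, with a median log2 fold change of 5.01. Ccl21a, the chemokine that guides dendritic cells into lymphatics, measured 311, 139, 289 and 322 CPM in C1 to C4 and 0 in S1 to S4. Flt4, the receptor for the lymphatic growth factor VEGF-C, measured 185, 111, 85.6 and 221 CPM against 0, 0, 1.95 and 0.903 CPM. Reln, a secreted glycoprotein of collecting lymphatics, measured 245, 84.2, 86.9 and 188 CPM against 4.53, 10.1, 4.18 and 0 CPM. For each of these genes every colonic library lay above every small intestinal one, and C2 was the lowest colonic library for Ccl21a and Reln.

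Ccl21a (chromosome 4, 42772860 to 42773993, minus strand) was at least 273-fold higher in the colon against the floor of 3 counts per library (log2 fold change 12.73, SE 1.02, edgeR adjusted p = 7.57e-08). Flt4, with 11 small intestinal counts, had a log2 fold change of 7.22 (SE 0.94, edgeR adjusted p = 7.46e-05). Reln was 32.1-fold higher by mean level (log2 fold change 4.50, SE 0.85, adjusted p = 0.00502). Thy1, a surface glycoprotein of lymphatic endothelium and also of neurons and fibroblasts, stood at 45.8 ± 41.9 CPM (SD, n = 4) against 0.150 ± 0.175 CPM, 2 counts in all (edgeR adjusted p = 0.00368). Mmrn1, a multimerin of lymphatic endothelium, was 61.4-fold higher (adjusted p = 0.0217), a call lost without S1 or S2 (adjusted p 0.0516 and 0.0510). Prox1 measured 155, 10.2, 147 and 101 CPM in C1 to C4 and 7.12, 0.316, 0.278 and 1.81 CPM in S1 to S4, with C2 far below the other colonic libraries. Its call (adjusted p = 0.0267) was lost without C1, C3, C4, S2, S3 or S4, with adjusted p up to 0.0878. Lyve1, a hyaluronan receptor of lymphatics and of some macrophages, measured 386 to 867 CPM in the colon and 2.53 to 141 CPM in the small intestine without passing the test (log2 fold change 2.63, edgeR adjusted p = 0.244).

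The summed level of the 10 lymphatic markers was 2113, 860, 1454 and 2290 CPM in C1 to C4 and 120, 13.9, 152 and 150 CPM in S1 to S4. In bulk libraries, fewer cells of a type and less RNA per cell cannot be told apart. The GF libraries gave 1584 to 1783 CPM in the colon and 31.0 to 146 CPM in the small intestine, and Ccl21a, Mmrn1 and Reln were called there too, with adjusted p of 3.34e-05, 0.0270 and 0.0343. The list's other members were not called in GF mice, among them Flt4 and Thy1 (edgeR adjusted p 0.0568 and 0.263). In SPF neuronal libraries the sum was 55.8 to 154 CPM. Ccl21a has near-identical copies in the mouse genome, so its reads may be shared with them. Of 11 tested blood endothelial markers 2 were called: Emcn, a sialomucin of veins and capillaries, at 54.5 ± 27.9 against 0.393 ± 0.615 CPM (adjusted p = 0.0155, lost without C2 at 0.0538), and the transcription factor Erg, at 21.8 ± 14.6 CPM against 0 (adjusted p = 0.0386, lost without each library but C1, up to 0.0972).

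**Figure D2:**
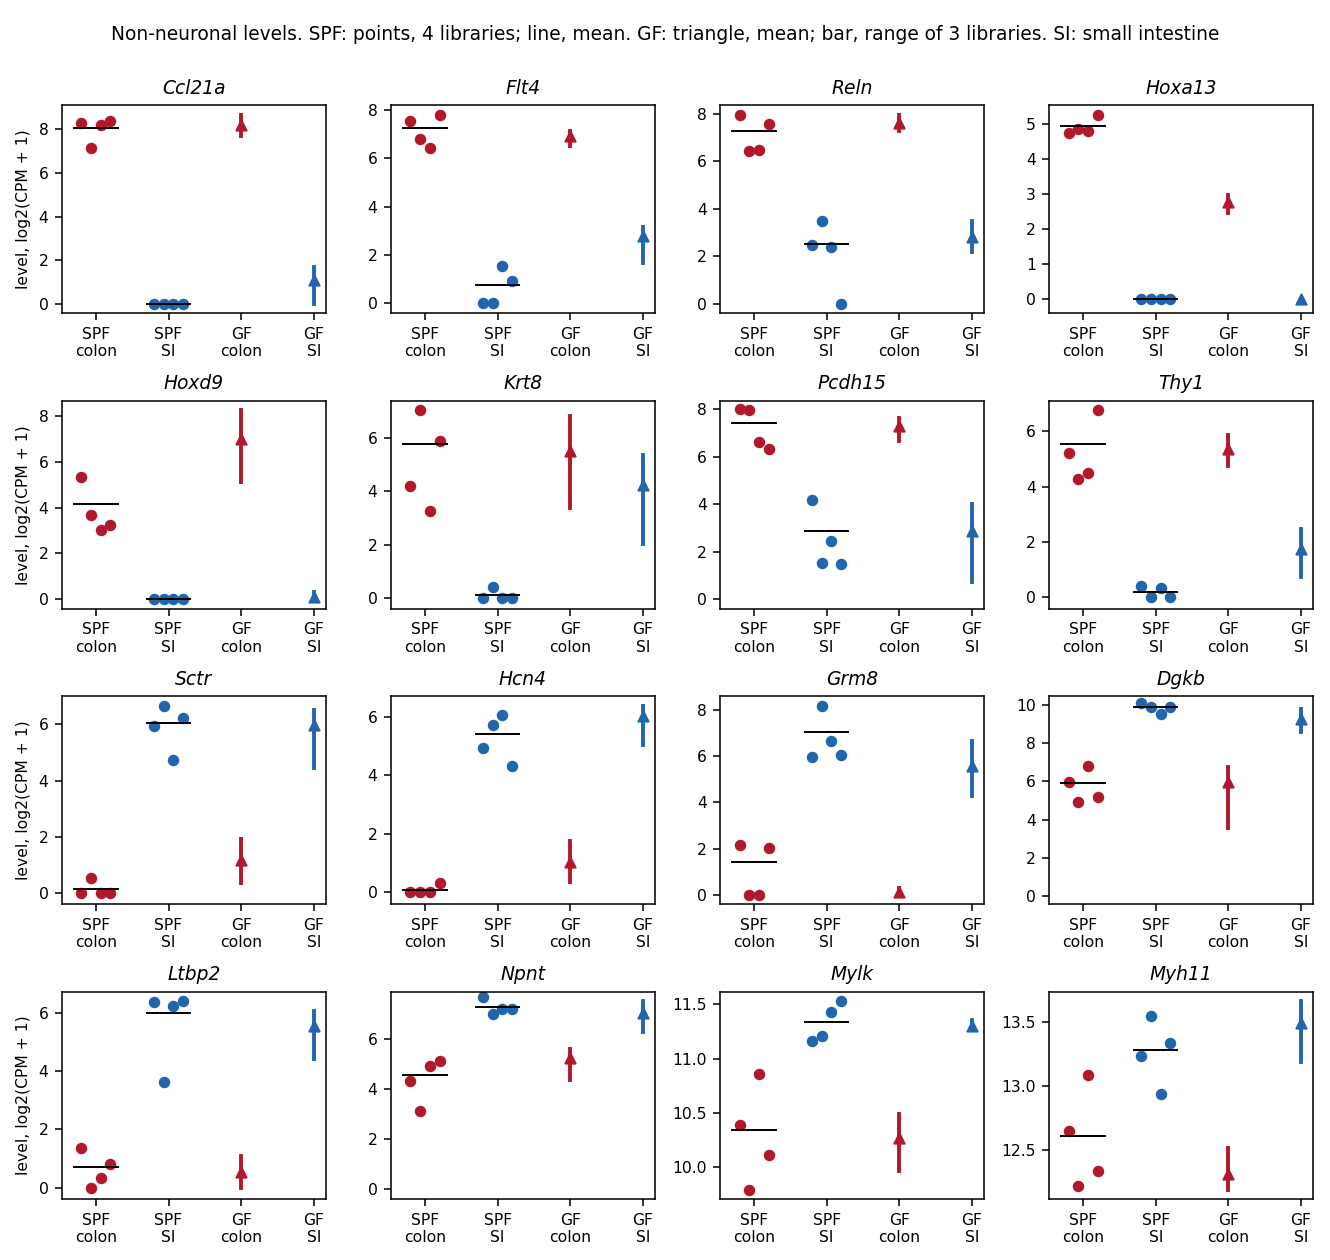
Level as log2(CPM + 1) of 16 named genes in non-neuronal libraries, with SPF libraries as points around their mean level (line) and GF groups as the mean (triangle) and range (bar) of 3 libraries, in the colon (red) and small intestine (SI, blue). Ccl21a, Hoxa13 and Hoxd9 were at 0 in the 4 SPF small intestinal libraries, and Myh11 is the one gene shown whose SPF segments overlapped.

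Several genes of neuronal function were also higher in colonic non-neuronal nuclei. Pcdh15, a cadherin of sensory hair cells, measured 254, 252, 96.8 and 79.8 CPM in C1 to C4 and 17.2, 1.90, 4.45 and 1.81 CPM in S1 to S4, 26.9-fold higher by mean level (edgeR adjusted p = 0.00386). Sst, the peptide somatostatin of enteric neurons and endocrine cells, measured 186, 116, 128 and 96.7 CPM against 0, 1.27, 0.278 and 0 CPM (1887 counts against 5, log2 fold change 7.88, adjusted p = 0.000701). Prph, the intermediate filament peripherin of peripheral neurons, measured 152, 109, 45.2 and 42.8 CPM against 6.15, 2.22, 1.39 and 0.226 CPM (35.0-fold, adjusted p = 0.0129). S1 was the highest small intestinal library for Pcdh15 and Prph, and no segment overlapped the other in these genes.

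Of the 12 enteric neuron markers, 2 were higher (Prph and the nicotinic receptor subunit Chrna3; median log2 fold change 2.35). Of 22 tested synapse and transmitter receptor genes, 3 were (Sst, Chrna3 and the ATP-gated channel P2rx2; median 3.01). Chrna3 stood at 131 ± 74.2 against 9.66 ± 15.2 CPM, and its call (adjusted p = 0.0470) was lost without each library but S1, up to 0.140. P2rx2 stood at 51.0 ± 48.7 against 1.16 ± 0.965 CPM, and its call (adjusted p = 0.0320) was lost without C1, C2, C3, S1, S2 or S3, up to 0.128. Snap25, a synaptic fusion protein, measured 703, 596, 295 and 359 CPM in C1 to C4 and 426, 2.22, 30.6 and 64.3 CPM in S1 to S4, where S1 reached the colonic range, and was not called (adjusted p = 0.505). Among the larger rises of genes with at least 5 CPM in both segments were Pcdh15, Pirt, Ptprn, Cp, Chrna3 and Sh3gl2. In colonic SPF neuronal libraries Pcdh15, Pirt, Ptprn and Chrna3 averaged 820, 487, 1538 and 459 CPM, above their colonic non-neuronal means. Cp and Sh3gl2 averaged 1.41 and 56.3 CPM there, below their colonic non-neuronal means of 105 and 135 CPM. Pirt, a regulator of TRP channels in sensory neurons, was 18.9-fold higher (adjusted p = 0.0156, lost without C4 at 0.0584). Cp encodes the copper protein ceruloplasmin and was 16.4-fold higher (adjusted p = 0.0235, lost without C4, S2, S3 or S4, up to 0.131). The calls of Ptprn and Sh3gl2, a secretory granule protein and an endocytosis protein, were lost without 6 and 5 of the 8 libraries, at adjusted p up to 0.0972 and 0.104.

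The neuronal log2 fold change between segments was -0.13 for Pcdh15, -0.24 for Pirt and 0.51 for Prph. The difference between fractions was 4.66 (SE 0.80), 4.27 (SE 0.78) and 4.37 (SE 0.77) on the log2 scale, with edgeR adjusted p of 0.00240, 0.00266 and 0.00173. These genes were chosen for the non-neuronal difference that enters that test. Over all genes, 187 of 20964 (0.892%) differed between fractions in this way, 165 of them (0.787%) with the higher value in the non-neuronal fraction and 22 (0.105%) with the lower. Those of lowest p were Dscaml1, Gm43319, Ano1, Fam155a and Prr36. Dscaml1, an adhesion molecule of neurons, measured 48.4, 48.3, 54.6 and 19.9 CPM in C1 to C4 and a single count in S4, and stood at 110 and 92.0 CPM on average in colonic and small intestinal neuronal libraries (adjusted p = 1.14e-05 between fractions). Ano1, the chloride channel of interstitial cells of Cajal, stood at 125 and 168 CPM in the non-neuronal and at 0.579 and 247 CPM in the neuronal fraction of colon and small intestine, so its difference came with the neuronal libraries. The Fam155a call between segments was lost without C1, C2, C4, S2, S3 or S4 (adjusted p up to 0.0779) and that of Prr36 without C2 (0.107).

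A run of unnamed gene models within a single gene shared the pattern. Kcnip4, a neuronal potassium channel partner, spans chromosome 5 from 48389502 to 49524907 on the minus strand (GRCm38). Of the 102 genes called higher in the colon, 10 were models lying inside it, 8 of them on its strand, with log2 fold changes of 4.51 to 6.94. They were picked out after their values were seen, and of them only Gm43319 was followed with libraries left out. The one of lowest p, Gm43319 at 48799010 to 48801279, measured 220, 243, 373 and 232 CPM in C1 to C4 and 5.82, 1.27, 1.39 and 0.903 CPM in S1 to S4 (114-fold, edgeR adjusted p = 2.84e-06). Kcnip4 itself stood at 24.2 ± 9.51 against 2.77 ± 3.44 CPM and was not called (log2 fold change 2.57, adjusted p = 0.286). Models inside a gene can share its unspliced RNA, so they are not counted here as separate genes, and whether they are transcripts of their own was not tested.

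Genes lower in the colon included receptors, pacemaker and matrix genes with large differences. Sctr, the secretin receptor, measured 0, 0.433, 0 and 0 CPM in C1 to C4 and 60.8, 101, 25.3 and 74.5 CPM in S1 to S4 (edgeR adjusted p = 8.74e-05). Hcn4, the pacemaker channel carrying the hyperpolarization-activated current, measured 0, 0, 0 and 0.252 CPM against 29.8, 51.3, 66.0 and 18.7 CPM (adjusted p = 0.000137). Grm8, a glutamate receptor coupled to inhibitory G proteins, measured 3.51, 0, 0 and 3.02 CPM against 61.2, 291, 101 and 66.1 CPM (adjusted p = 0.00122). The segments did not overlap in any of these genes. Colonic reads numbered 2 for Sctr and 1 for Hcn4, so their levels are given without a fold.

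Sctr lies on chromosome 1 (120006894 to 120063536), Hcn4 on chromosome 9 (58823412 to 58863175) and Grm8 on chromosome 6 (27275119 to 28135178). The fitted log2 fold changes were -9.08 (SE 1.20) for Sctr, -9.05 (SE 1.24) for Hcn4 and -6.89 (SE 1.09) for Grm8. In GF mice the same 3 were called lower in the colon, at -6.31, -6.67 and -9.01 (edgeR adjusted p 0.00643, 0.00508 and 0.00256). In the neuronal fraction Hcn4 averaged 4.35 CPM in the colon and 4.89 CPM in the small intestine (log2 fold change -0.29), with both ranges from 0. Grm8 averaged 8.15 and 0.966 CPM there (log2 fold change 2.97) and was not called (edgeR adjusted p = 0.343). The difference from the non-neuronal fraction was -8.65 (SE 2.10, adjusted p = 0.0311) for Hcn4 and -9.70 (SE 1.64, adjusted p = 0.00101) for Grm8. Both genes were chosen for the non-neuronal difference that enters that test. Of 29 tested muscle wall receptor genes, a list chosen with earlier results of these data known, Sctr and Grm8 were the 2 called. Of 29 tested muscle and pacemaker ion channel genes, 4 were lower and none higher: Hcn4, Abcc9, Kcnh2 and Ryr3 (median log2 fold change -0.93, against 0.02 over all genes). With library totals in place of TMM, 2 were lower and 1 higher (median -0.54, against 0.43 over all genes). The calls of Kcnh2 and Ryr3 were lost with that scaling.

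Abcc9, the sulfonylurea receptor subunit of the ATP-sensitive potassium channel in smooth muscle and pericytes, measured 388, 233, 447 and 420 CPM in C1 to C4 and 910, 1001, 879 and 828 CPM in S1 to S4. It was 2.43-fold lower in the colon (log2 fold change -1.72, SE 0.31, edgeR adjusted p = 0.00386) without overlap. Kcnh2, a channel that sets smooth muscle excitability, stood at 48.1 ± 21.7 against 191 ± 88.5 CPM (adjusted p = 0.0470, lost without each library but S1, up to 0.144). Ryr3, a calcium release channel, stood at 499 ± 185 against 900 ± 143 CPM with overlapping segments (adjusted p = 0.0253, lost without C1, C2, C4, S1 or S4, up to 0.107). Dgkb, a diacylglycerol kinase that limits lipid signals from G protein-coupled receptors, measured 60.5, 29.7, 109 and 35.0 CPM against 1101, 953, 736 and 934 CPM, 15.9-fold lower in the colon (adjusted p = 4.86e-05). Gpr20, an orphan receptor found in interstitial cells of Cajal, stood at 2.14 ± 1.61 against 66.7 ± 31.2 CPM, 31.1-fold lower (adjusted p = 0.00822). The SPF neuronal libraries showed the same direction for Gpr20, with means of 0 CPM in the colon and 62.2 CPM in the small intestine (edgeR adjusted p = 2.65e-05).

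Of 12 smooth muscle markers 2 were lower and none higher, and their log2 fold changes had a median of -0.59, which was -0.17 with library totals in place of TMM. Mylk, the kinase that starts contraction by phosphorylating myosin, measured 1343, 886, 1857 and 1108 CPM in C1 to C4 and 2285, 2357, 2758 and 2951 CPM in S1 to S4, without overlap. It was 1.99-fold lower in the colon (log2 fold change -1.42, SE 0.25, edgeR adjusted p = 0.00353). Myh11, the smooth muscle myosin heavy chain, measured 6416, 4742, 8668 and 5143 CPM against 9642, 11958, 7843 and 10341 CPM, and C3 lay above S3. Its call (log2 fold change -1.12, SE 0.24, adjusted p = 0.0220) was lost without C1, C2, C4 or S2, up to 0.0972, and with library totals, limma-voom or DESeq2. In GF mice Myh11 was called at -2.08 (adjusted p = 0.000596) and Mylk at -1.88 (adjusted p = 0.00112).

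The interstitial cell list had 1 call among 8 genes, the gap junction gene Gja1, at 13.3 ± 6.86 against 79.5 ± 35.1 CPM (edgeR adjusted p = 0.0382, lost without each library but S2, up to 0.119). Kit, the receptor tyrosine kinase that defines these cells, measured 107, 133, 79.9 and 172 CPM in C1 to C4 and 430, 107, 50.9 and 62.1 CPM in S1 to S4. Without S1 its log2 fold change of -0.75 turned to 0.28 and that of Ano1, also -0.75, to 0.08, so S1 alone set the direction. The sum of the 8 interstitial cell markers was 560 to 746 CPM in colonic and 345 to 1451 CPM in small intestinal non-neuronal libraries. In SPF neuronal libraries that sum was 420 to 613 and 815 to 2331 CPM, and which cells gave this RNA was not tested. Of 5 PDGFRA-positive cell markers, the matrix protein gene Adamtsl3 was 5.42-fold lower (28.2 ± 9.97 against 153 ± 36.3 CPM, adjusted p = 0.00402). Muc16, a mesothelial surface mucin, measured 545, 1185, 608 and 753 CPM against 1872, 2320, 1768 and 1228 CPM, 2.33-fold lower (adjusted p = 0.00637) and the 1 call of 8 mesothelial markers. None of 11 fibroblast, 9 tested glial or 10 macrophage markers was called by edgeR. An unadjusted p below 0.05 was found for 5, 0 and 2 of them, DESeq2 called 1, 0 and 1, and limma-voom 2, 0 and 0. Over all 18267 genes these counts were 2772, 1092 and 330. Of 13 mitochondrially encoded genes, 1 was lower (mt-Nd6, which lies opposite mt-Nd5; adjusted p = 0.0362, lost without C1 to C4, S2 or S3, up to 0.148), and the median was -1.95. On that list 10 genes had an unadjusted p below 0.05, DESeq2 called 7, limma-voom 0 and library totals 5, and edgeR called 8 lower in GF mice.

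**Figure D3:**
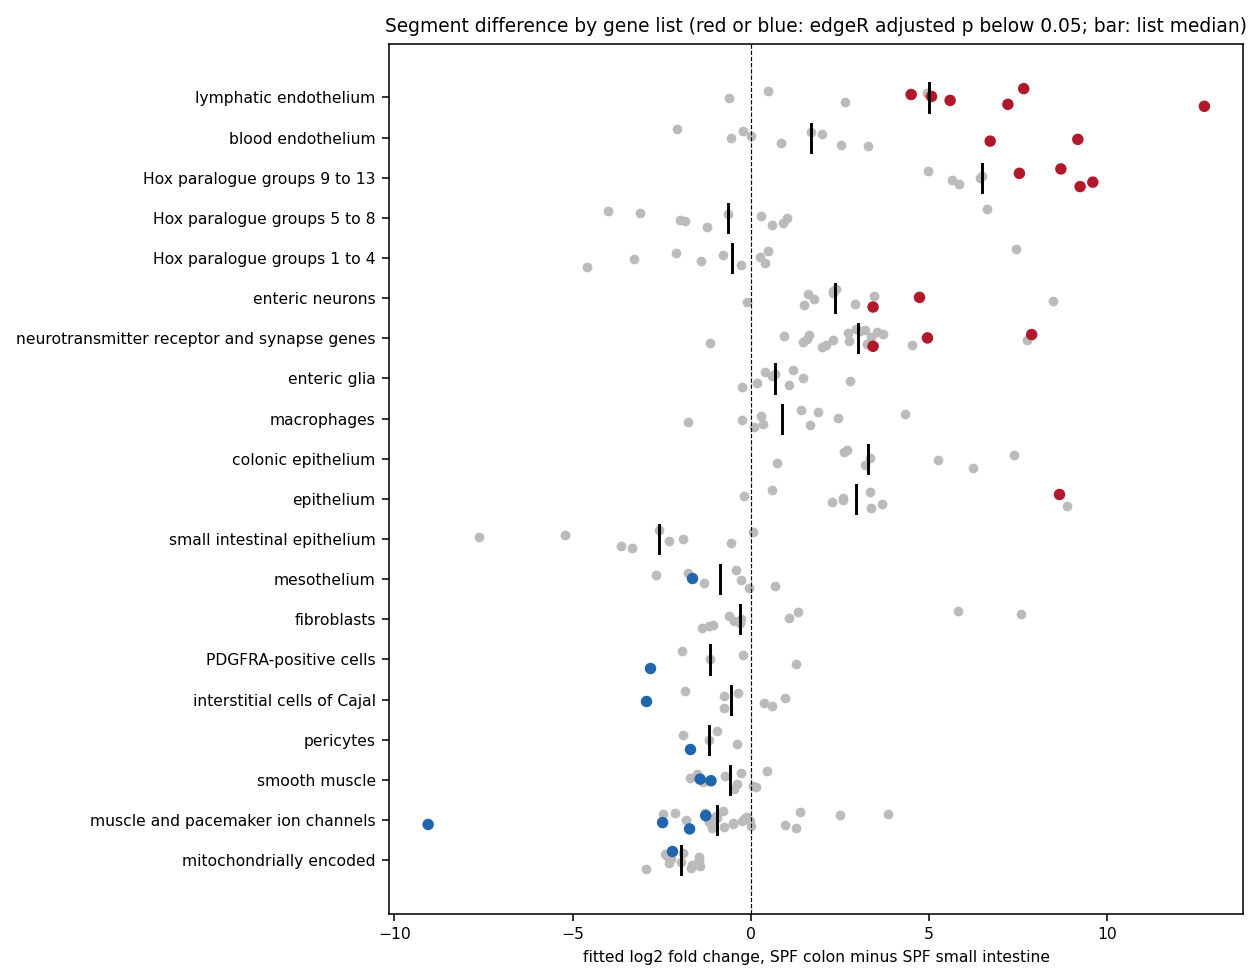
Fitted log2 fold change, SPF colon minus SPF small intestine (horizontal axis), of each tested member of 20 gene lists (points), with genes called higher in red and lower in blue and the list median as a black bar. The lymphatic list (6 of 10 called) and Hox groups 9 to 13 (4 called) lie to the right, and the mitochondrially encoded list (median -1.95) to the left.

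Matrix and signalling genes lower in the colon included Ltbp2, which binds latent TGF-beta complexes and microfibrils. It measured 1.56, 0, 0.261 and 0.756 CPM in C1 to C4 and 82.2, 11.4, 75.4 and 84.2 CPM in S1 to S4 (8 counts against 934, log2 fold change -7.03, edgeR adjusted p = 0.00179), with S2 the lowest small intestinal library. Npnt, the integrin ligand nephronectin, measured 19.1, 7.58, 29.5 and 33.8 CPM against 199, 126, 143 and 146 CPM (6.82-fold, adjusted p = 0.00353). Cemip, a hyaluronan-degrading protein, measured 10.9, 15.6, 46.2 and 17.6 CPM against 286, 242, 242 and 275 CPM (11.6-fold, adjusted p = 6.10e-05). In these genes the segments did not overlap, and the small intestinal libraries spread by little for Cemip.

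Among 27 tested genes of the BMP and TGF-beta pathway, 2 were lower and none higher, Ltbp2 and the BMP antagonist Grem1 (34.3 ± 21.8 against 181 ± 63.9 CPM, edgeR adjusted p = 0.0209, lost without C1, C2, C4 or S2, up to 0.0851). Of 28 matrix genes, 2 were lower, Npnt and the tenascin gene Tnxb (493 ± 187 against 954 ± 327 CPM, adjusted p = 0.0333, lost without C2, C4, S3 or S4, up to 0.128). Of 10 tested hedgehog pathway genes the receptor and target gene Ptch1 was lower (50.8 ± 19.0 against 155 ± 41.2 CPM, adjusted p = 0.0333, lost without C2, C3, C4, S1, S2 or S3, up to 0.112), whereas in GF mice it stood at 130 against 73.9 CPM. Of 27 tested Wnt genes the ligand Wnt5a was lower, and its call (adjusted p = 0.0439) rested on S2: it measured 34.9, 364, 66.2 and 15.6 CPM in S1 to S4 and gave an adjusted p of 0.411 without S2. It was also lost without C1, C2, C3, C4 or S3, up to 0.121. Of 20 tested mesenchymal transcription factor genes the homeobox gene Meis2 was lower (566 ± 135 against 991 ± 286 CPM, adjusted p = 0.0238, lost without C2, C4, S1 or S3, up to 0.100). No gene of the retinoid (11 tested), interferon (18) or axon guidance (22) lists was called by edgeR. An unadjusted p below 0.05 was found for 1, 2 and 2, DESeq2 called 0, 2 and 1, and limma-voom 0 in each. Over all 18267 genes these counts were 2772, 1092 and 330.

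Tm6sf1, a multipass membrane protein gene, was also among the larger falls, at 5.85, 61.9, 20.4 and 34.8 CPM in C1 to C4 and 349, 394, 380 and 337 CPM in S1 to S4 (11.9-fold, edgeR adjusted p = 0.000113). Frem1, a basement membrane protein gene, was 9.79-fold lower (adjusted p = 0.0128, lost without C4 at 0.0565), and C2 (59.1 CPM) stood above the other colonic libraries (10.1 to 13.8 CPM). The remaining falls chosen by size were the collagen gene Col6a4, the potassium channel partner Kcnip2, Vwa3a, the collectin Colec10 and Nos1ap, an adaptor of neuronal nitric oxide synthase, with log2 fold changes of -7.48, -5.28, -3.62, -3.21 and -3.14. Each of these 5 lost its call without 3 to 6 of the 8 libraries left out in turn, at adjusted p up to 0.0642, 0.144, 0.227, 0.107 and 0.0865.

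Krt8, the keratin of simple epithelia, measured 17.6, 131, 8.61 and 57.4 CPM in C1 to C4 and 0, 0.316, 0 and 0 CPM in S1 to S4 (edgeR adjusted p = 0.00433) and was the 1 call of 10 epithelial markers, whose median log2 fold change was 2.96. Muc2 measured 1623, 11437, 2512 and 4845 CPM against 270, 245, 341 and 703 CPM and was not called (adjusted p = 0.123). None of 8 colonic (median 3.28) or 9 tested small intestinal (median -2.58) epithelial markers was called by edgeR. An unadjusted p below 0.05 was found for 6 and 5, DESeq2 called 3 and 2, and limma-voom 1 and 0. Over all 18267 genes these counts were 2772, 1092 and 330. The tight junction gene Marveld3 and the basement membrane gene Lad1, at least 19.0-fold and 15.1-fold higher in the colon, were highest in C2 (39.8 and 34.6 CPM), as was the steroid dehydrogenase gene Hsd3b2 (154 CPM). C2 was also the library with the largest epithelial sum. Without C2 these 3 calls were lost, at adjusted p of 0.0932, 0.131 and 0.148. Marveld3 was also lost without C4, S2, S3 or S4, Lad1 without each other library and Hsd3b2 without S3, at lower values. In GF mice Krt8, Marveld3 and Lad1 were measured in both segments, at 45.0, 18.5 and 20.7 CPM in the colon and 17.9, 13.4 and 15.9 CPM in the small intestine.

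The remaining large rises had no counts in S1 to S4. Igfbp2, a binding protein of insulin-like growth factors, measured 11.3, 16.5, 13.6 and 24.4 CPM in C1 to C4 and was at least 16.9-fold higher. Myh2, a myosin heavy chain of fast skeletal muscle, measured 10.5, 4.33, 8.87 and 84.9 CPM, so that C4 carried most of its level. Lcn2, a siderophore-binding protein, measured 38.6, 0.433, 5.48 and 29.0 CPM. Bglap, which encodes osteocalcin, and Glt1d1 averaged 16.1 and 13.8 CPM in the colon. The edgeR adjusted p was 0.0387, 0.0380, 0.0481, 0.0411 and 0.0446 for Igfbp2, Myh2, Lcn2, Bglap and Glt1d1. Each call was lost without 7 or 8 of the 8 libraries left out in turn (Myh2 kept it only without C3), up to 0.0896, 0.144, 0.108, 0.112 and 0.114.

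The GF groups share no library with the SPF comparison, although the fit pools the spread over both. Xist was at 8.06 to 19.6 CPM in every GF non-neuronal library, so only the low kind was present in the GF groups. All mitochondrially encoded genes, ribosomal and transfer RNA genes included, took 4.64% to 10.8% of their colonic and 13.4% to 35.6% of their small intestinal counts. In them 130 genes were called (0.712%), 40 higher (0.219%) and 90 lower (0.493%) in the colon. The lists called in SPF and GF mice shared 21 higher genes, 20.6% of the SPF and 52.5% of the GF list, and 41 lower genes, 42.3% and 45.6%. Of the SPF calls, 86 of 102 higher and 95 of 97 lower genes had the same sign in GF mice, and none was called in the opposite direction. Dgkb stood at 60.5 against 608 CPM in GF mice, Tm6sf1 at 30.5 against 196 CPM and Cemip at 22.1 against 150 CPM (edgeR adjusted p 0.000980, 0.00322 and 0.00196).

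A test of the difference between the SPF and GF segment effects called no gene by edgeR (lowest adjusted p 0.425), with 1243 of 18267 genes at an unadjusted p below 0.05. DESeq2 called 61 and limma-voom 0. The 3 genes of lowest p were Tmem35b, Lats2 and Gm16559, with differences of 11.35, 4.01 and 10.11 on the log2 scale. Lats2, a kinase of the Hippo pathway, stood at 95.8 against 15.9 CPM in SPF and 71.6 against 152 CPM in GF mice, colon against small intestine.

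**Figure D4:**
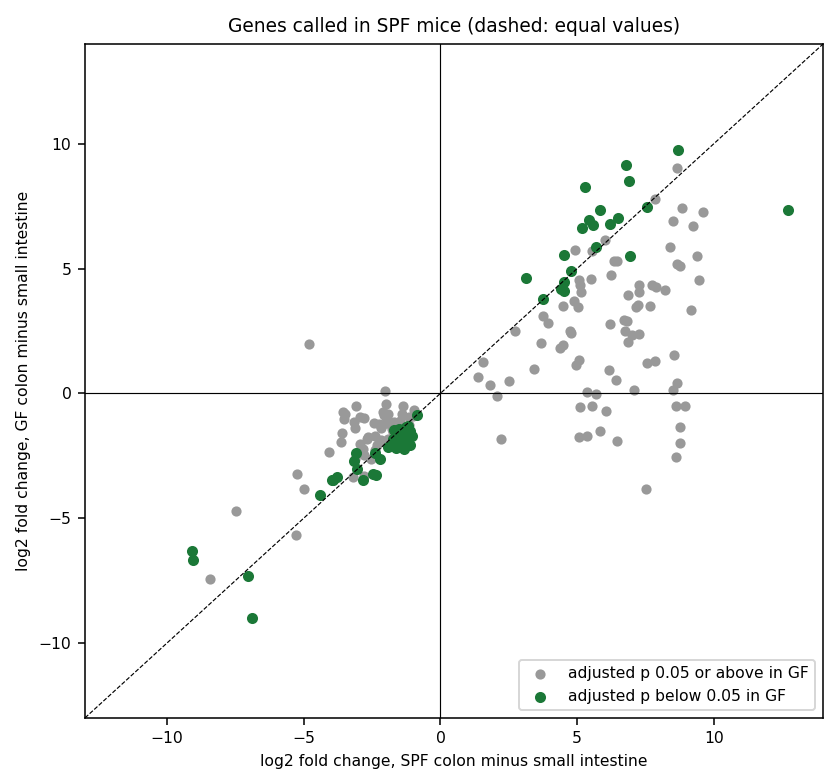
Log2 fold change, colon minus small intestine, of the 199 genes called in SPF mice, in SPF (horizontal axis) and in GF mice (vertical axis), with the 62 genes also called in GF mice in green and equal values on the dashed line. The median of the 97 lower genes was -2.16 in SPF and -1.76 in GF mice, and 16 of 102 higher genes have a GF value below 0.

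Nuclear long noncoding RNAs moved in both directions. Malat1, an RNA of nuclear speckles, measured 33507, 30651, 40366 and 33475 CPM in C1 to C4 and 45877, 55452, 40658 and 44925 CPM in S1 to S4 (log2 fold change -0.88, SE 0.16, edgeR adjusted p = 0.00465), and was not called with library totals or DESeq2. Neat1, the scaffold of paraspeckles, measured 2510, 8267, 2712 and 2917 CPM against 1109, 1436, 1317 and 935 CPM (log2 fold change 1.37, SE 0.33, adjusted p = 0.0362), with C2 the highest. Its call was lost without C2, S1, S3 or S4, up to 0.202. Kcnq1ot1, an imprinted antisense RNA, was lower (log2 fold change -0.98, adjusted p = 0.0278), a call lost without C1, C2, C4, S2 or S3, up to 0.0987, and with library totals or DESeq2.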

How the data were processed

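The authors deposited gene-level expected counts, made with STAR 2.5.2 and RSEM 1.3.0 on GRCm38, per the submitters' processing notes, which also name DESeq2 1.10.1. Neither the annotation nor the strand setting of the counting is given in the sources used here. Overlapping or antisense genes may thus share reads (for example mt-Nd6 and mt-Nd5, Kcnq1ot1 and Kcnq1). Libraries came from amplified nuclear RNA, 8 PCR cycles and 75 bp single-end reads, per the labels' protocols. Gene symbols and positions came from GENCODE M21, which matched 51719 of 51912 genes. Of the deposited values 7.48% were not whole, and the expected counts were rounded.

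Genes passing filterByExpr were tested two-sided with edgeR 4.0.16 (R 4.3.3; TMM, robust quasi-likelihood fit, 1 mean per group) over the 14 non-neuronal libraries, or all 28 for the difference between fractions. Benjamini-Hochberg adjustment ran over all genes tested, and a gene was called below 0.05. CPM levels use library totals. Named genes were the 15 largest rises and falls among separated, called genes with at least 5 CPM in the higher group, the 8 largest each way with at least 5 CPM in the lower group, members of 38 gene lists, and the genes of lowest p in each test of a difference between segment effects. Some genes that this rule takes in are not reported here. The comparison and the lists were chosen with earlier results of these data known. The labels do not tie libraries to animals, so p-values measure the spread between libraries, which may be technical. Deviations of same-numbered colonic and small intestinal libraries correlated at -0.01 to 0.07, and the numbers were not taken as pairs. The method was tested on simulated data. DESeq2 1.42.0 and limma-voom (limma 3.58.1) were alternatives, beside other scalings, filters, sample sets, Xist terms, a term for the replicate number and fits with 1 library left out.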

Additional observations from a re-analysis of the deposited data

Results flagged for a closer look

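Among 127 sets of 4 libraries, 16 held 1 library far from the other 3 by Dixon's criterion. For normally distributed values chance meets it in about 1 of 20 sets. It was applied to levels in CPM, where that rate need not hold. In the colon, C2 was the high library for Hsd3b2 (154 CPM), Frem1 (59.1 CPM), Neat1 (8267 CPM) and Tmem35b (71.9 CPM). Hoxd9 was high in C1 (39.4 CPM), Gm43319 in C3 (373 CPM), and Myh2 (84.9 CPM) and Gja1 (23.4 CPM) in C4. In the small intestine, S1 was the high library for Chrna3 (32.4 CPM), Snap25 (426 CPM), Kit (430 CPM) and Gm43319 (5.82 CPM). Wnt5a (364 CPM) and Kcnip4 (7.91 CPM) were high in S2, where Ltbp2 (11.4 CPM) was low, and Col6a4 (90.5 CPM) was high in S4.

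For 20 named genes the segment difference differed between the non-neuronal and neuronal fractions by edgeR's test of that difference, given here as non-neuronal minus neuronal on the log2 scale. All but Ano1 were called in the non-neuronal comparison, and all of those were picked from libraries that enter this test. The calls of Chrna3, P2rx2, Prox1, Meis2, Tnxb, Pirt, Fam155a and Prr36 were each lost without at least 1 library. Their edgeR adjusted p then rose up to 0.140, 0.128, 0.0878, 0.100, 0.128, 0.0584, 0.0779 and 0.107. The value was positive for Dscaml1 (8.43), Pcdh15 (4.66), Pirt (4.27), Chrna3 (3.52), Prph (4.37), P2rx2 (4.74), Sst (5.39), Fam155a (5.35), Prr36 (7.13) and Gm43319 (5.19), genes and a model higher in the colonic non-neuronal fraction. It was positive also for the lymphatic list members Prox1 (9.68) and Thy1 (6.80). Meis2 (3.62), Tnxb (2.69) and Ano1 (8.16) had positive values with neuronal log2 fold changes of -4.69, -3.91 and -8.81. The value was negative for Sctr (-5.73), Hcn4 (-8.65), Grm8 (-9.70), Dgkb (-2.67) and Tm6sf1 (-3.79). Some other falls were also called between the neuronal segments. These included Abcc9, Npnt, Adamtsl3, Mylk and Malat1, with neuronal log2 fold changes of -3.07, -6.88, -5.02, -1.46 and -0.78. Their edgeR adjusted p was 1.90e-05, 6.49e-05, 0.00424, 0.0254 and 0.0224. Cemip (-2.62) and Ltbp2 (-0.73) were not called there (edgeR adjusted p 0.123 and 0.977).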

How the results depend on the processing

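Against 199 genes called by edgeR in SPF mice, DESeq2 called 1092, limma-voom 330, edgeR with no low-count filter 579 and a fit over all 28 libraries 811 (685 higher, 126 lower). Leaving out 1 library gave 79 (without C2) to 292 (without S1), with 122 without C1, 97 without C4, 104 without S2 and 122 without S3. The 130 calls in GF mice became 526 with DESeq2, 260 with limma-voom, 303 unfiltered, 76 with only the groups compared, 309 with all 28 libraries and 42 with a term for Xist of at least 10 CPM. The difference between SPF and GF segment effects had 0 calls, against 61 with DESeq2, 36 unfiltered and 0 to 1 with 1 library left out (1 without S2). The difference between fractions had 187 calls, against 812 with DESeq2, 630 unfiltered, 304 with the term for Xist of at least 10 CPM and 134 to 484 with 1 library left out (484 without S1). Where fewer libraries enter, the fit has fewer samples. For the rest the cause was not tested. Of 71 called genes followed, 27 were called under every one of up to 20 settings, 28 with each library left out, and none reversed; library totals kept 55 and limma-voom 58. Kit and Ano1, not called, ranged from -1.05 to 0.28 and from -1.06 to 0.0753 with 1 library left out, and were above 0 without S1 only (adjusted p 0.834 and 0.966). Library totals and the term for Xist of at least 1000 CPM were added after the data were seen. Genes at 0 in a segment are limited by the floor of 3 counts, at most 1.17 CPM in the colon and 0.971 CPM in the small intestine.

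With the replicate number as a block, 317 genes were called in SPF and 207 in GF mice, 1 for the difference between SPF and GF effects, and 59 of the 71 genes kept their call. The labels give same-numbered libraries only a number in common. Their deviations correlated at 0.07, 0.00, -0.01 and 0.05, and not every library correlated best with its own number. Xist split both segments by the same numbers, at 10542 to 15493 CPM in C3, C4, S3 and S4. It was at 7.12 to 63.0 CPM in C1, C2, S1 and S2. Whether same-numbered libraries share an animal or a batch was not tested.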
